A study of Mus musculus with 21 samples.

Results

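The genes described here are those that surround Cd79a on mouse chromosome 7, the locus into which the Cre recombinase gene of this study was placed. Cd79a spans chr7:24897497-24901858 on the GRCm38 assembly. Members were all genes of the count files that start within 5 Mb of the Cd79a start, other than Cd79a itself and 6 genes left out by the rule (Arhgef1, Hnrnpl, Hnrnpul1, Fbl, Rps16 and Rps19). Of 47729 gene identifiers in the files, 407 met the rule, and 134 of these were expressed enough to be tested. Positions came from RefSeq annotation of GRCm38.p6, matched through gene symbols and their synonyms. In the rule and in all distances, the start of a gene is the lower coordinate of its extent on either strand. For genes on the minus strand, such as Pou2f2 and Rabac1, this is where transcription ends. Identifiers without a matched position could also lie in the window; 92.2% of the 15789 genes tested had a position.

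Cd79a encodes Ig-alpha, the signalling chain that pairs with Ig-beta (Cd79b) in the B cell receptor, and Cre placed in this gene is widely used to delete loxP-flanked genes from early B cell development onward. An allele made this way replaces part of its host gene, and breeding carries neighbouring DNA along with it, so genes near the insertion can in principle differ between Cre carriers and littermates without Cre. PTBP1, polypyrimidine tract binding protein, is an RNA-binding protein that acts on splicing, stability and translation of transcripts.

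Splenic germinal centre B cells were sorted from C57BL/6 mice 7 days after immunisation with NP-KLH in alum, into light zone (LZ) cells, which are selected by antigen and T cell help, and dark zone (DZ) cells, which divide and mutate their antibody genes. Control mice were CD79a+/+Ptbp1fl/fl and conditional knockout (cKO) mice were CD79acre/+Ptbp1fl/fl, so loxP-flanked Ptbp1 was common to both genotypes and the Cre allele was particular to cKO mice. Crossing zone with genotype gave 4 groups of 4 libraries, each made from 3 to 5 pooled mice of the same sex. The LZ and DZ libraries of a pool came from the same mice, and replicate numbers 1 to 4 are sort days shared by all groups, with males on days 1 and 2 and females on days 3 and 4. The ages of the mice are not stated in these sources. No group carried the Cre allele without the loxP-flanked Ptbp1 alleles, so effects of the Cre allele, of DNA linked to it and of PTBP1 loss cannot be told apart in these groups.

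Library depth ranged from 26823882 to 34240096 counts assigned to genes. Ptbp1 fell in the cKO libraries to 25.8% of the control mean in LZ and 23.3% in DZ, which checks the labels. Germinal centre B cell markers were high in every library: their summed level over 7 genes ranged from 7150 to 10054 CPM (counts of a gene relative to the library total after edgeR's TMM scaling; all levels below are on this scale). CPM values are not divided by gene length, so levels are compared between groups and never between genes.

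Cd79a itself fell in both zones. In LZ it stood at 3025, 2749, 2626 and 2342 CPM on days 1 to 4 in control libraries and at 1623, 1504, 1112 and 1190 CPM in cKO libraries. In DZ the control values were 2535, 2179, 2433 and 2024 CPM and the cKO values 986.5, 1087, 829.7 and 891.8 CPM. Every cKO library lay below every control library of its zone, and the cKO mean was 50.5% of the control mean in LZ and 41.4% in DZ. The log2 fold change was -0.98 (SE 0.13, adjusted p = 0.00151) in LZ and -1.27 (SE 0.13, adjusted p = 9.97e-05) in DZ by edgeR's quasi-likelihood test with Benjamini-Hochberg adjustment over all 15789 genes. Cre carriers keep 1 unmodified Cd79a allele per the genotype label. Arhgef1, a RhoGEF of B cell migration that starts 5.5 kb downstream and was left out of the members, was higher in LZ cKO cells (log2 fold change 0.56, SE 0.11, adjusted p = 0.0279), and in DZ its value was 0.42 (SE 0.11, adjusted p = 0.112).

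The window was unevenly filled. Of the 407 members, 273 are annotated as protein coding and 99 as pseudogenes, and 228 had 0 counts in all 16 libraries. A further 45 had at least 1 count but did not pass the filter on low counts; the highest mean among them was 0.236 CPM, for Lrfn1. Families with narrow tissue expression were nearly all silent. A search for the symbol prefixes Vmn1r (vomeronasal receptors), Psg, Cyp2, Ceacam and Lypd found 102 members. Of these, 95 had no count in any library and 4 were tested. Another 131 silent members were in none of the role lists used below. The 134 tested members comprised 119 protein-coding genes, 8 pseudogenes, 6 long non-coding RNAs and 1 small nucleolar RNA. Upstream of Cd79a 24 were tested, of which 23 lay within 1 Mb, and downstream 110. Mean levels over the 16 libraries were under 1 CPM for 27 members, 1 to 10 CPM for 40, 10 to 100 CPM for 50 and at least 100 CPM for 17.

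Few of the genes around Cd79a were called between genotypes in the main edgeR fit, which does not pair libraries by sort day. In LZ, 4 of 134 tested members rose in cKO cells (Akt2, B3gnt8, Rasgrp4 and Fam98c) and 1 fell (Blvrb). These 5 are 3.73% of the members, beside 1.08% of all genes tested (171 of 15789; 0.69% higher and 0.393% lower). In DZ, 2 rose (Akt2 and Kcnk6) and 1 fell (Blvrb), which is 2.24% beside 0.627% of all genes (99 of 15789; 0.31% higher and 0.317% lower). The calls were at an adjusted p under 0.05. With the sort day as a block, 17 members were called in LZ (10 higher and 7 lower, 12.7% beside 5.5% of all genes) and 7 in DZ (3 higher and 4 lower, 5.22% beside 3.27%), and the 5 and 3 members named above were among them. By DESeq2, 10 of the 112 members with an adjusted p were called in LZ (8.93% beside 4.54% of all genes with one) and 6 of 137 in DZ (4.38% beside 2.94%). DESeq2 also called Kcnk6, Gmfg, Sertad1, Mrps12 and Snrpa in LZ and Fam98c, Fbxo27 and Eid2 in DZ. The edgeR counts without the block moved when 1 library was left out: such fits gave 1 to 6 called members in LZ and 1 to 3 in DZ. The LZ count was 1 without LZ control library 3 or 4 or LZ cKO library 1 or 2, and 2 without LZ control library 2, LZ cKO library 4, DZ control library 3 or DZ cKO library 2. It was 3 without DZ control library 1 or 4 or DZ cKO library 4, since all libraries share 1 estimate of spread. The DZ count was 1 without DZ control library 1 or 4 or DZ cKO library 1 or 2. How many of all genes were called in these smaller fits is not given here.

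The bulk of the members did not shift together. The median log2 fold change of the tested members was 0.06 in LZ beside 0.02 for all genes tested, and 0.0098 in DZ beside 0.011. The median absolute change was 0.24 beside 0.22 in LZ and 0.21 beside 0.20 in DZ. Of the 134 members, 79 had a positive change in LZ (59.0%, beside 52.5% of all genes) and 68 in DZ (50.7%, beside 51.7%). Control and cKO libraries did not overlap for 15 members in LZ (11.2%, beside 8.65% of all genes) and for 9 in DZ (6.72%, beside 6.38%). Among the 67 members with a mean of at least 10 CPM, 63 changed by less than 0.5 on the log2 scale in LZ and 64 in DZ, and the widest values were -0.51 (Blvrb) and 0.81 (Ceacam1) in LZ and -0.58 (Actn4) and 0.61 (Ceacam1) in DZ.

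**Figure D1:**
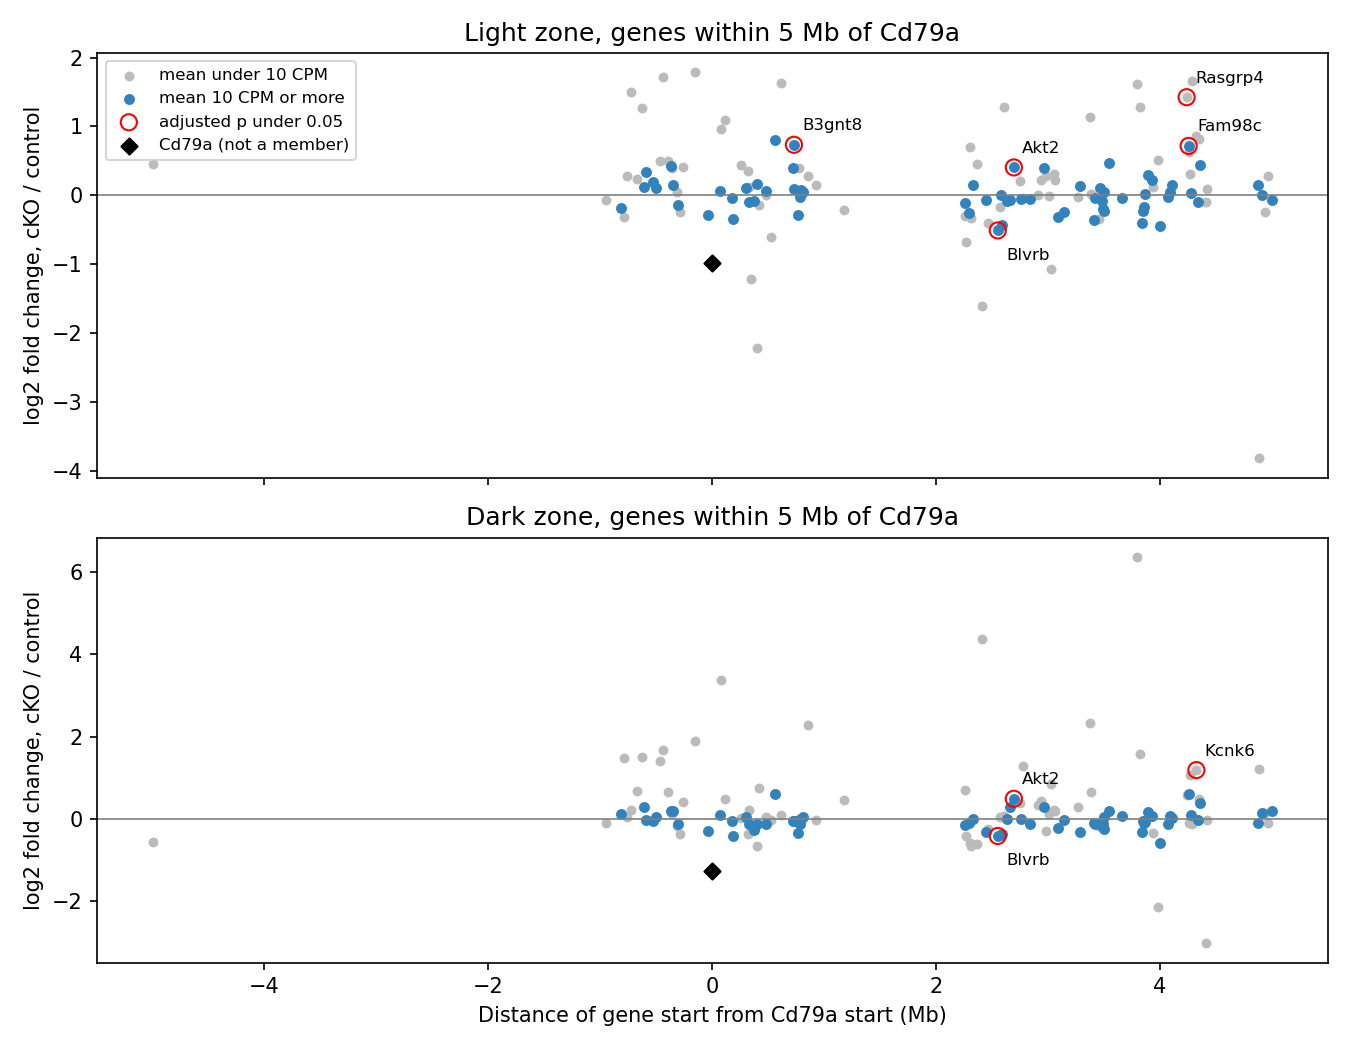
Log2 fold change of cKO against control (vertical axis) for each tested member against the distance of its start from the Cd79a start in Mb (horizontal axis), in LZ (top) and DZ (bottom); points are genes, coloured by mean level, red rings mark an adjusted p under 0.05 and the diamond is Cd79a. Blue points (67 members of 10 CPM or more) lie close to 0 on both sides of Cd79a, wide values belong to grey points of low level, and the ringed genes all lie downstream.

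In the fit without the sort-day block, called members were not the nearest ones. These counts leave out Arhgef1, which the rule excludes. It lies nearer to Cd79a than any tested member and was called higher in LZ. Within 1 Mb of Cd79a, 53 members were tested and 1 was called in LZ (B3gnt8, 1.89%) and 0 in DZ. At 1 to 2 Mb 1 member was tested and not called. At 2 to 5 Mb, all downstream except Pvr near the upstream edge, 4 of 80 were called in LZ (5%) and 3 in DZ (3.75%). Farther along chromosome 7, at 5 to 20 Mb, 2 of 256 genes were called in LZ (0.781%) and 4 in DZ (1.56%), and beyond 20 Mb 8 of 704 (1.14%) and 6 (0.852%). On other chromosomes 150 of 13457 genes were called in LZ (1.11%) and 84 in DZ (0.624%). Upstream of Cd79a 0 of 24 tested members were called in either zone by edgeR, with or without the sort-day block, or by DESeq2, and 1 in LZ and 2 in DZ had an unadjusted edgeR p under 0.05. Over all genes tested, 13.4% in LZ and 11.4% in DZ had such a p. With the block, the members called within 1 Mb were Pou2f2, Ceacam1, Dmac2 and B3gnt8 in LZ (7.55%) and Pou2f2 and Exosc5 in DZ (3.77%). The block called 16.2% of members at 2 to 5 Mb in LZ and 6.25% in DZ. On other chromosomes it called 5.79% and 3.35% of genes. B3gnt8 was the 1 member within 1 Mb called in the fit with no block. Its call there was lost without LZ control library 2, 3 or 4, LZ cKO library 1 or 2, DZ control library 1 or 3, or DZ cKO library 1 or 2.

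Genes around Ptbp1 on chromosome 10 give a second window, in which both genotypes carry the same loxP-flanked alleles. Within 5 Mb of Ptbp1, 3 of 191 tested genes were called in LZ (1.57%; Cnn2, Tbxa2r and Zfp873) and 1 in DZ (0.524%; Cnn2). The share called around Cd79a was above that around Ptbp1 in both zones, by counts of 5 against 3 genes and 3 against 1; no test of this difference was made.

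At the edges of the window, the last tested members inside were Pvr, 4.99 Mb upstream (log2 fold change 0.45 in LZ and -0.56 in DZ), and Zfp27, 5.00 Mb downstream (-0.06 and 0.19). The first tested genes outside were Ceacam16, 5.05 Mb upstream (1.10 in LZ and 0.90 in DZ), and Zfp383, 5.01 Mb downstream (-0.20 and 0.65). None of these 4 had an adjusted p under 0.05; the lowest was 0.053, for Ceacam16 in LZ.

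Of the 10 tested members nearest to Cd79a, 5 on either side, 0 were called in either zone by edgeR without the sort-day block or by DESeq2, and Pou2f2 was called in both zones with the block. At an unadjusted edgeR p under 0.05 without the block there was 1 in LZ (Gm9844) and 2 in DZ (Gm9844 and Pou2f2). The shares of all genes tested at that p were 13.4% and 11.4%. Arhgef1, nearer than all of these and called in LZ, is not among the 10 because the rule excludes it. Rabac1, a prenylated Rab acceptor that starts 72.3 kb downstream, stood at 54.2, 53.2, 55.0 and 44.7 CPM in LZ control libraries and 57.9, 59.7, 47.2 and 50.7 CPM in LZ cKO libraries. Its log2 fold change was 0.06 in LZ (95% interval -0.22 to 0.33) and 0.10 in DZ (-0.18 to 0.37), so a change beyond about 0.37 in either direction lies outside both intervals. Zfp574, a zinc finger gene 178.2 kb downstream, gave -0.03 in LZ (-0.28 to 0.22) and -0.06 in DZ (-0.32 to 0.19), and Ethe1, a mitochondrial sulfur dioxygenase 310.0 kb upstream, gave -0.14 in both zones (-0.35 to 0.07 in each). In all 3 genes the libraries of both genotypes overlapped.

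Gm9844, an annotated pseudogene 35.3 kb upstream and the nearest tested member on that side, stood at 48.2, 41.4, 40.4 and 41.5 CPM in LZ control libraries and 42.4, 32.9, 31.4 and 33.5 CPM in LZ cKO libraries. Its log2 fold changes of -0.29 in LZ and -0.30 in DZ had adjusted p values of 0.34 and 0.374, and reads of a pseudogene can come from its parent gene. Phldb3, 287.2 kb upstream, had values of -0.24 and -0.38 at a mean of 1.27 to 1.72 CPM per group, with intervals from -1.11 to 0.48 over both zones.

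Pou2f2 encodes OCT2, the octamer-binding transcription factor of B cells, and starts 189.9 kb downstream. In LZ it stood at 286, 262, 210 and 201 CPM in control libraries and 261, 193, 137 and 169 CPM in cKO libraries. In DZ the control values were 202, 182, 150 and 166 CPM and the cKO values 148, 146, 109 and 122 CPM. The cKO library was lower on every sort day in both zones, and the groups did not overlap in DZ. cKO against control gave a log2 fold change of -0.34 in LZ (adjusted p = 0.435) and -0.41 in DZ (adjusted p = 0.37) without the block, and with the sort-day block the adjusted p was 0.026 and 0.0172.

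Cd177, Grik5 and Lypd3 were low and variable. Cd177, a surface glycoprotein of neutrophils 153.5 kb upstream, was at 0 CPM in 3 of 4 control libraries of each zone and between 0 and 2.87 CPM in cKO libraries. Grik5, a kainate receptor subunit, and Lypd3, a membrane-anchored protein of epithelia, were at most 3.33 CPM and 1.41 CPM in any library. The 95% intervals of the log2 fold change were wide: in LZ -2.19 to 5.76 for Cd177, -3.15 to 3.97 for Lypd3 and -0.61 to 2.81 for Grik5.

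Markers of other cell types varied between libraries, and 0 of those listed here were called in either zone by edgeR. The summed level of 8 macrophage markers, of which Cd14 and Mertk were at 0 CPM in 4 and 5 of 16 libraries, ranged from 22.9 to 371 CPM in LZ control, 76.7 to 464 CPM in LZ cKO, 13.9 to 386 CPM in DZ control and 41.0 to 1169 CPM in DZ cKO libraries. All 8 had a positive log2 fold change in both zones. Neutrophil markers summed to 0 to 12.5, 0 to 37.7, 0 to 38.3 and 0.284 to 40.9 CPM in the same order of groups. The group medians of these sums were 0.0997, 21.6, 0 and 29.1 CPM. Of the 5 neutrophil markers 4 were tested, and these 4 had a positive log2 fold change in both zones. Ly6g was at 0 CPM in 13 of 16 libraries. The 6 T and NK cell markers all had positive changes in both zones and summed to 31.8 to 127 CPM in LZ control, 33.9 to 149 CPM in LZ cKO, 10.1 to 65.8 CPM in DZ control and 27.0 to 84.7 CPM in DZ cKO libraries. The 4 plasma cell markers were positive in 2 of 4 in LZ and 4 of 4 in DZ, and summed to 1198 to 1960, 1118 to 2094, 2582 to 7539 and 2262 to 10617 CPM in the same order. Macrophage markers were highest on sort day 2 in every group, and the only control libraries with Cd177 counts were also those of day 2. The part of such cells in the values of Cd177, Ceacam1, Axl, Plaur and Rasgrp4 was not tested. In bulk samples, fewer cells of a type and less RNA per cell cannot be told apart.

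**Figure D2:**
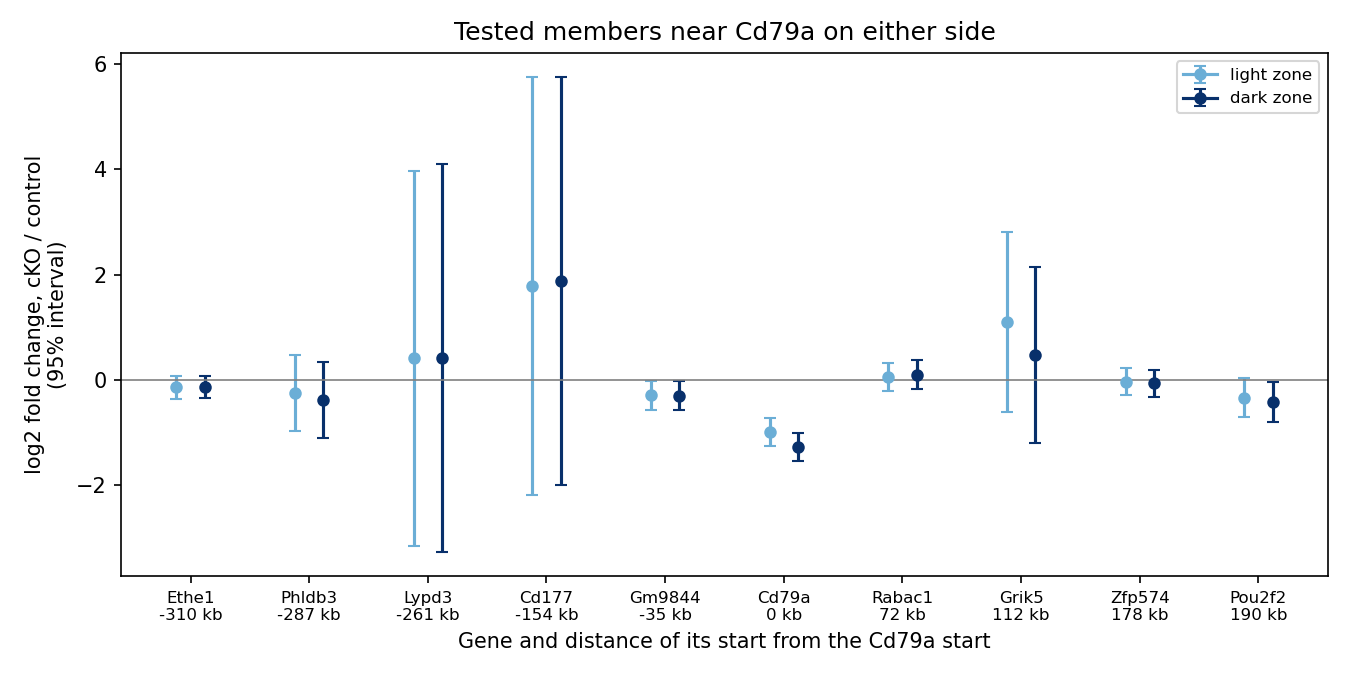
Log2 fold change of cKO against control with its 95% interval (vertical axis) for Cd79a and for tested members among the 5 nearest to it on either side, ordered by distance in kb (horizontal axis); light points are LZ and dark points DZ. Cd79a lies below 0 with narrow intervals, Rabac1, Zfp574 and Ethe1 have narrow intervals that include 0, and Cd177, Lypd3 and Grik5 have wide ones.

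Akt2 and Blvrb were the members called in both zones by edgeR without the block, in opposite directions. Fam98c and Kcnk6 were also called in both zones with the block and by DESeq2, and Pou2f2 and Actn4 with the block alone. The LZ and DZ libraries of a number share mice, so the zones are not independent. The promoter sequences of Akt2 and Blvrb run from 250 bases before to 50 bases after the annotated start (RefSeq, GRCm38.p6). They are shown with that of B3gnt8, the nearest to Cd79a of the members called without the block. The B3gnt8 window is set on a transcript start 24 bases downstream of the start of the gene's extent given below. Capitals mark the GC box GGGCGG on either strand, a motif bound by SP-family factors:
Akt2, chr7:27591302-27591601, plus strand: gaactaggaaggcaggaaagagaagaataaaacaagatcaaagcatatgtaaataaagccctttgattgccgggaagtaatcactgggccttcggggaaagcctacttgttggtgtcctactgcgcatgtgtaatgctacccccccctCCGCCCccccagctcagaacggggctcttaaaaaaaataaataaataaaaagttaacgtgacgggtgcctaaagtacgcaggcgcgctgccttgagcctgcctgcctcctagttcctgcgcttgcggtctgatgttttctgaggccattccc
Blvrb, chr7:27447728-27448027, plus strand: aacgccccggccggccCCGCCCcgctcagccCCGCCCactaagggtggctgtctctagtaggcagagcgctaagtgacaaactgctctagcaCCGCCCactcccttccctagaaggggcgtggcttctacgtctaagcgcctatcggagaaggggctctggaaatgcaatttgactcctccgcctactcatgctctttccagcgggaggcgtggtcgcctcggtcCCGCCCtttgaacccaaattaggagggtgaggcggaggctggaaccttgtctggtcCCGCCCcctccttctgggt
B3gnt8, chr7:25627374-25627673, plus strand: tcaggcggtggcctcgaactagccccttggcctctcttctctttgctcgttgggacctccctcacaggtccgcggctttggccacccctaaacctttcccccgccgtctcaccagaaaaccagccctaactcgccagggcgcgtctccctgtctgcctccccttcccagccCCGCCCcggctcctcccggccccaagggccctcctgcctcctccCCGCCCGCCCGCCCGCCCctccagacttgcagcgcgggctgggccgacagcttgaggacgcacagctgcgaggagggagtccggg

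These windows held 1, 5 and 5 GC box matches, and 4 of the 5 in B3gnt8 overlap one another. A GC box was found in 35.7% of the 32851 promoters of this length in the table. The octamer ATTTGCAT, searched on both strands as the motif of OCT2, was in none of the 3 windows and in 1.74% of all promoters. Akt2 has 4 annotated starts and Blvrb 2, and the one at the gene's start is shown. The windows of Akt2, Blvrb and B3gnt8 had 50%, 63% and 70.3% G and C, beside a median of 52.7% over all promoters. A match is a description of letters and not evidence of binding.

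Akt2, a serine/threonine kinase of PI3K signalling, starts 2694 kb downstream of Cd79a (chr7:27591552-27640826). In LZ it stood at 96.8, 98.3, 83.7 and 84.5 CPM in control libraries and at 123, 130, 109 and 119 CPM in cKO libraries. In DZ the control values were 67.9, 68.8, 67.3 and 74.99 CPM and the cKO values 91.1, 105, 95.1 and 99.0 CPM. Every cKO library was above every control library of its zone. On the log2 scale the change was 0.41 in LZ (SE 0.08, adjusted p = 0.0255) and 0.49 in DZ (SE 0.08, adjusted p = 0.00917), or 1.32-fold and 1.40-fold.

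The DZ call of Akt2 was kept in each of 16 fits that left out 1 library (log2 fold change 0.45 to 0.52). Its LZ call was lost without LZ control library 3 or 4 or LZ cKO library 1, 2 or 4, at adjusted p values up to 0.0912 and log2 fold changes of 0.37 to 0.45 over all such fits. Without a whole sort day neither call was kept, with adjusted p from 0.0901 to 0.258 in LZ and from 0.0552 to 0.113 in DZ. Such fits hold 12 of the 16 libraries. Among the other called members named below, only the LZ call of Blvrb was kept in any of them, without day 3 (adjusted p = 0.0247).

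Blvrb, a biliverdin and flavin reductase, starts 2550 kb downstream (chr7:27447978-27465981). In LZ it stood at 170, 147, 134 and 157 CPM in control libraries and at 115, 98.3, 108 and 107 CPM in cKO libraries. In DZ it was higher in both genotypes, at 338, 289, 283 and 308 CPM in control against 232, 215, 250 and 212 CPM in cKO libraries. Again no cKO library reached a control library of its zone. Relative to control, the log2 fold change in cKO libraries was -0.51 in LZ (SE 0.09, adjusted p = 0.0104) and -0.42 in DZ (SE 0.09, adjusted p = 0.0396), 1.42-fold and 1.34-fold lower. The LZ call was kept in each fit without 1 library, and the DZ call was lost in 11 of 16: without any 1 DZ control library, DZ cKO library 1, 2 or 4, LZ control library 2 or 4, or LZ cKO library 3 or 4 (adjusted p up to 0.138).

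B3gnt8, a glycosyltransferase that extends lactosamine chains on glycans, starts 730.1 kb downstream (chr7:25627600-25629492). In LZ it stood at 21.9, 16.3, 15.9 and 18.7 CPM in control libraries and at 33.9, 38.3, 23.7 and 25.2 CPM in cKO libraries, and the groups did not overlap. In DZ the control values were 40.7, 37.3, 39.1 and 47.4 CPM and the cKO values 37.1, 39.0, 34.0 and 47.6 CPM, and the groups overlapped. In the fit the log2 fold change was 0.73 in LZ (SE 0.16, adjusted p = 0.0415) and -0.06 in DZ (SE 0.16, adjusted p = 0.945). The difference between zones, 0.79 (SE 0.23), had an unadjusted p of 0.00317 and an adjusted p of 1 in edgeR's interaction test. The LZ call was lost in 9 of 16 fits without 1 library: LZ control library 2, 3 or 4, LZ cKO library 1 or 2, DZ control library 1 or 3, or DZ cKO library 1 or 2 (adjusted p up to 0.141). Over the 16 fits the LZ log2 fold change of B3gnt8 was 0.60 to 0.84.

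The other called members lie close together at the far downstream end. Rasgrp4 (chr7:29134607-29153961), a Ras exchange factor known from mast cells and other myeloid cells, starts 4237 kb from Cd79a, Fam98c (chr7:29152510-29157104) 4255 kb and Kcnk6 (chr7:29221928-29232522), a background potassium channel, 4324 kb. The extents of Rasgrp4 and Fam98c overlap by 1452 bases. No source used here gives the strand setting of the authors' counting, so reads in that overlap cannot be told apart. Promoter sequences of Rasgrp4 and Kcnk6 are not shown.

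Rasgrp4 stood at 9.59, 5.65, 5.61 and 4.20 CPM in LZ control libraries and at 28.0, 13.6, 12.8 and 12.9 CPM in LZ cKO libraries. In DZ it was lower in both genotypes, at 3.10, 2.06, 3.59 and 2.82 CPM in control against 5.47, 4.95, 2.88 and 4.03 CPM in cKO libraries. The groups did not overlap in LZ and did in DZ. cKO against control gave a log2 fold change of 1.42 in LZ (SE 0.32, adjusted p = 0.0428) and 0.58 in DZ (SE 0.32, adjusted p = 0.534), and the interaction gave 0.84 (unadjusted p = 0.0776). Sort day 1 had the highest value in both LZ groups, and without LZ cKO library 1 the LZ change was lowest among fits without 1 library, at 1.07. The call was lost in 11 of 16 such fits, all but those without LZ control library 1, LZ cKO library 3, DZ control library 2 or DZ cKO library 1 or 3 (adjusted p up to 0.135).

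Fam98c stood at 13.9, 14.2, 14.3 and 11.5 CPM in LZ control libraries and at 28.7, 21.1, 17.7 and 21.2 CPM in LZ cKO libraries. DZ values were 10.9, 8.02, 9.69 and 8.21 CPM in control against 16.5, 13.6, 11.8 and 13.96 CPM in cKO libraries. The groups did not overlap in either zone. On the log2 scale the change was 0.72 in LZ (SE 0.16, adjusted p = 0.0454) and 0.60 in DZ (SE 0.16, adjusted p = 0.114, or 0.0307 with the sort-day block). The LZ call was lost in 11 of 16 fits without 1 library: the 4 without an LZ control library, those without LZ cKO library 1, 2 or 4, and those without DZ library 3 or 4 of the control or 2 or 4 of the cKO group (adjusted p up to 0.148). Over the 16 fits the LZ log2 fold change of Fam98c was 0.57 to 0.81.

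Kcnk6 stood at 5.13, 5.45, 8.39 and 5.50 CPM in LZ control libraries and at 12.4, 9.36, 10.9 and 11.6 CPM in LZ cKO libraries. DZ values were 3.44, 6.17, 6.62 and 5.11 CPM in control against 12.8, 13.7, 13.0 and 9.01 CPM in cKO libraries. No control library reached a cKO library in either zone. Relative to control, the log2 fold change in cKO libraries was 1.18 in DZ (SE 0.22, adjusted p = 0.0232) and 0.85 in LZ (SE 0.22, adjusted p = 0.083, or 0.0301 with the sort-day block). The DZ call was lost without DZ control library 1 or 4 or DZ cKO library 1, 2 or 3 (adjusted p up to 0.0887).

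**Figure D3:**
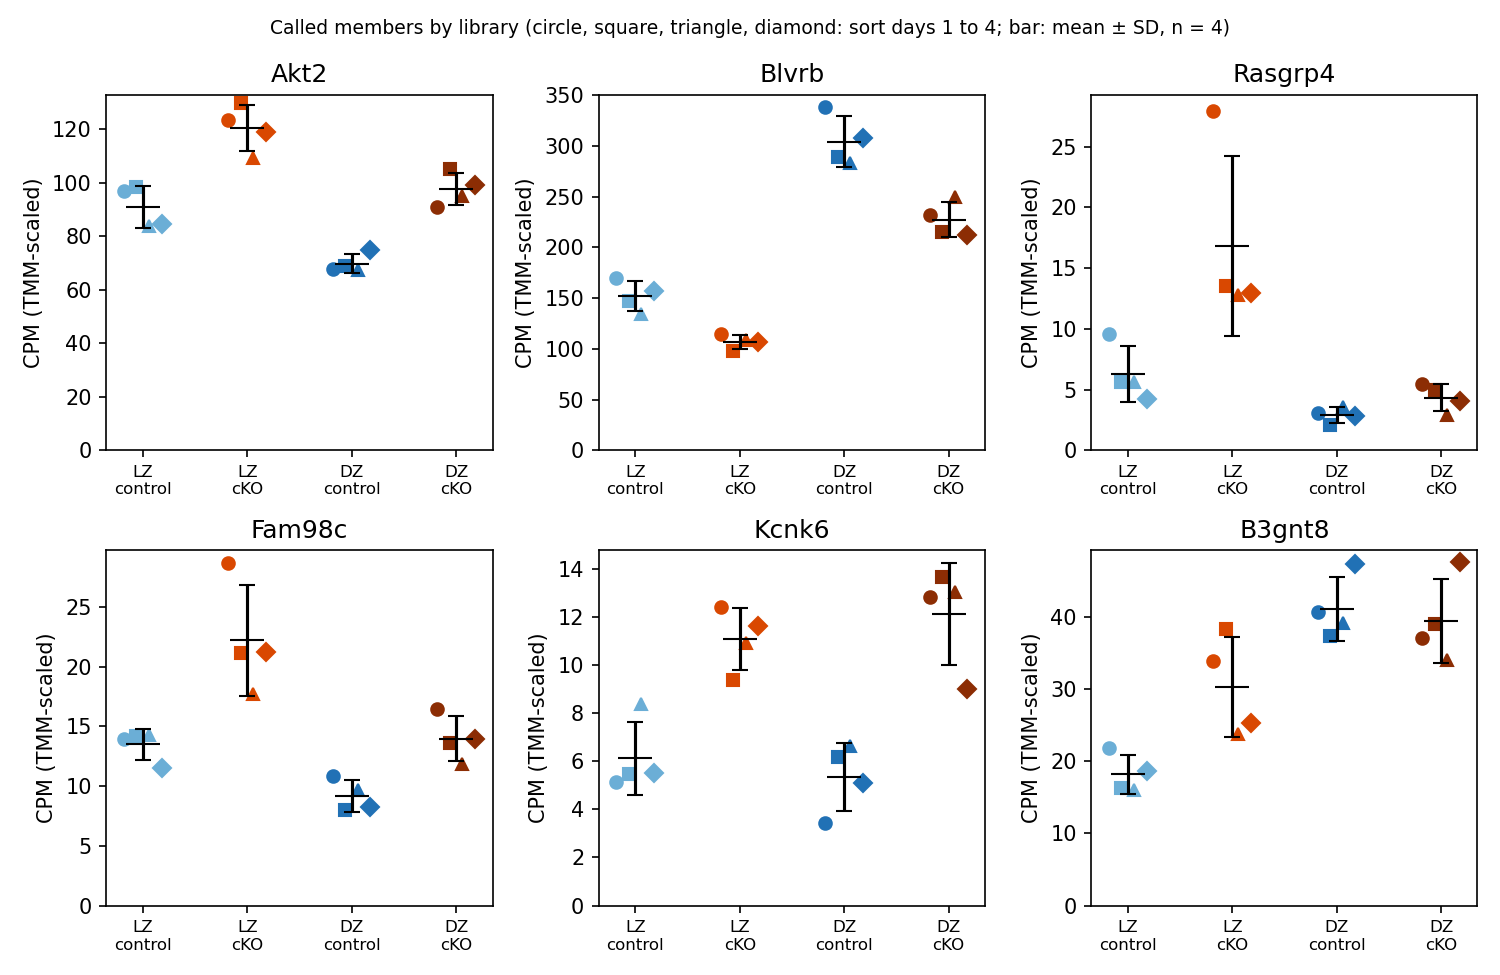
Level in CPM (vertical axis, from 0) of the 6 members called in LZ or DZ, in each of the 4 groups; each symbol is 1 library, symbol shapes are sort days and bars are the mean ± SD (n = 4). The cKO libraries of Akt2 lie above and those of Blvrb below the control libraries in both zones, while B3gnt8 differs in LZ and overlaps in DZ.

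Interaction tests between genotype and zone called 0 of 134 members and 0 of 15789 genes by edgeR, with or without the block. At an unadjusted p under 0.05 there were 9 members (6.72%; Pvr, Dmac2, B3gnt8, BC024978, Ltbp4, Sertad3, 2310022A10Rik, Fbxo27 and Zfp30) beside 2.95% of all genes, and DESeq2 called 0 members beside 0.0391% of all genes. These names are listed because of their values.

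Among signalling and immune surface genes, 18 of 20 listed members were tested. By edgeR without the block, 2 rose in LZ (Akt2 and Rasgrp4), 1 rose in DZ (Akt2) and 0 fell. Over all genes, 1.08% were called in LZ and 0.627% in DZ. With the block, 6 rose and 1 fell (Pou2f2) in LZ, beside 5.5% of all genes called. In DZ, 1 rose and 1 fell (Pou2f2), beside 3.27%. At an unadjusted edgeR p under 0.05 there were 7 in LZ and 3 in DZ, beside 13.4% and 11.4% of all genes. No test over the list was made. The median log2 fold change of the list was 0.23 in LZ and 0.05 in DZ, beside 0.02 and 0.01 for all genes. Map4k1, a kinase that restrains B cell receptor signalling, stood at 635 ± 21.0 CPM in LZ control, 660 ± 46.3 in LZ cKO, 498 ± 30.0 in DZ control and 517 ± 16.6 in DZ cKO libraries (SD, n = 4). Its log2 fold change was 0.05 in both zones, with a 95% interval of -0.09 to 0.20. Gmfg, an actin-debranching factor of blood cells, had 64.0 ± 2.51 CPM in LZ control and 88.6 ± 13.3 CPM in LZ cKO libraries without overlap (log2 fold change 0.47, adjusted p = 0.107, or 0.0335 with the block). Rinl, an exchange factor for endosomal Rab proteins, had 69.3 ± 4.36 and 84.7 ± 4.32 CPM in LZ, also without overlap (0.29, adjusted p = 0.191, or 0.0404 with the block). Tgfb1, the cytokine TGF-beta, gave 0.07 in LZ and -0.00063 in DZ.

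Ceacam1, a cell adhesion receptor with inhibitory signalling motifs, starts 564.2 kb downstream and overlaps an antisense transcript along its whole length. It stood at 22.9, 39.7, 23.1 and 20.8 CPM in LZ control libraries and 50.2, 64.7, 32.7 and 39.1 CPM in LZ cKO libraries. The cKO library was higher on each of the 4 days, and control day 2 lay above cKO days 3 and 4. In the fit the log2 fold change was 0.81 (SE 0.29, adjusted p = 0.224, or 0.0269 with the block).

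Among transcription and chromatin regulators, 16 of 17 listed members were tested and 0 were called by edgeR. At an unadjusted p under 0.05 there were 2 in LZ and 4 in DZ, beside 13.4% and 11.4% of all genes tested. The medians were -0.02 in LZ and -0.12 in DZ. Sertad1, a cofactor of E2F-dependent transcription, had the lowest p of its list in LZ, with 45.6 ± 6.91 CPM in control against 33.8 ± 4.35 CPM in cKO libraries (SD, n = 4; log2 fold change -0.43, edgeR adjusted p = 0.144, DESeq2 adjusted p = 0.0494). Its neighbour Sertad3 gave 0.00 in LZ and -0.40 in DZ (adjusted p = 0.192). Erf, an ETS-domain repressor, and Eid2, an inhibitor of differentiation genes, were at 2.64 CPM or less in every library. Eid2 was called in DZ by DESeq2 alone (adjusted p = 0.0319).

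None of the 24 tested genes of 26 in the zinc finger list was called in either zone by edgeR, with or without the block, or by DESeq2. In each zone 1 had an unadjusted edgeR p under 0.05, beside 13.4% of all genes in LZ and 11.4% in DZ. The medians were 0.08 in LZ and 0.16 in DZ. Many of these encode repressors in clusters of related copies, where reads can be shared between copies. Zfp607a had 10.3 ± 2.09 and 13.6 ± 2.23 CPM in LZ and 9.13 ± 0.726 and 11.1 ± 0.674 CPM in DZ (SD, n = 4; log2 fold changes 0.40 and 0.29, adjusted p 0.272 and 0.541). Its control and cKO libraries did not overlap in DZ. Zfp607b and Zfp30 were at 2.38 CPM or less in every library.

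RNA processing, protein turnover and DNA repair genes had 0 of 14 members called by edgeR without the block. At an unadjusted p under 0.05 there were 3 in LZ and 4 in DZ, beside 13.4% and 11.4% of all genes. DESeq2 called Mrps12 and Snrpa in LZ (adjusted p 0.0374 and 0.0444) and Fbxo27 in DZ (0.0346). The list had medians of -0.09 in LZ and -0.08 in DZ. Snrpa, an RNA-binding protein of the U1 snRNP, stood at 161 ± 7.05 CPM in LZ control and 135 ± 12.1 CPM in LZ cKO libraries without overlap (SD, n = 4; log2 fold change -0.25, adjusted p = 0.141, or 0.0145 with the block). Psmc4, an ATPase of the proteasome cap, gave -0.24 in LZ (adjusted p = 0.209, or 0.0231 with the block), and Psmd8, another cap subunit, gave 0.04 with a 95% interval of -0.11 to 0.19. Mrps12, a mitochondrial ribosomal protein, had 42.9 ± 3.84 and 32.5 ± 2.62 CPM in LZ without overlap (-0.40, adjusted p = 0.125, or 0.0404 with the block). Fbxo27 was at 0 CPM in all 4 DZ control libraries and at 0, 0.536, 0.391 and 0.386 CPM in DZ cKO libraries, with an edgeR adjusted p of 0.175. The cKO mean was 13.9-fold above a floor of 3 counts over the control group. This ratio makes no allowance for the spread of the cKO libraries.

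In the mitochondrial and metabolic list all 10 members were tested, Blvrb fell in both zones, and the medians were 0.07 in LZ and -0.08 in DZ. Timm50, a subunit of the inner membrane import complex, stood at 127, 123, 135 and 138 CPM in LZ control libraries and 115, 74.6, 116 and 104 CPM in LZ cKO libraries (log2 fold change -0.35, adjusted p = 0.187, or 0.0413 with the block). Dmac2 lies 721.9 kb downstream, next to B3gnt8. It had 62.5 ± 4.98 CPM in LZ control and 82.2 ± 15.8 CPM in LZ cKO libraries (0.39, adjusted p = 0.196, or 0.0453 with the block), and 76.3 ± 7.23 and 73.9 ± 11.6 CPM in DZ. Ech1, a peroxisomal and mitochondrial isomerase, gave 0.23 in LZ and 0.07 in DZ.

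Trafficking and membrane genes had 9 of 12 members tested, Kcnk6 rose in DZ, and the medians were 0.06 in LZ and -0.02 in DZ. Rab4b, a GTPase of endosomal recycling, was at 1.36 ± 0.181 CPM in LZ control and 0.850 ± 0.333 CPM in LZ cKO libraries, without overlap but with an adjusted p of 0.447. The 4 tested members of the tissue-restricted families had 0 calls by edgeR without the block or by DESeq2. An unadjusted edgeR p under 0.05 was found for 1 in LZ and 0 in DZ, beside 13.4% and 11.4% of all genes. Of 40 tested members in none of these lists, Fam98c and B3gnt8 rose in LZ and 0 were called in DZ. Outside the calls, Actn4, which crosslinks actin filaments, ranged from 291 to 476 CPM in LZ control and 213 to 351 CPM in LZ cKO libraries. It was lower in the cKO library on all 4 days in both zones (log2 fold changes -0.44 and -0.58, adjusted p 0.31 and 0.189, or 0.0471 and 0.0259 with the block).

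Control mice, which carry no Cre, show how the members differ between zones. Of the 134 tested members, 6 were higher in LZ and 7 in DZ, 9.7% in all beside 7.49% of all genes tested (4.16% higher and 3.33% lower). With the sort-day block 21 were called (15.7% beside 13.7%), and by DESeq2 also 21 (15.7% beside 11.3%). This comparison uses the same control libraries as the genotype comparisons.

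Pafah1b3, a catalytic subunit of platelet-activating factor acetylhydrolase, differed most among the called members. It stood at 63.8, 62.0, 64.2 and 74.4 CPM in LZ control and 292, 235, 246 and 281 CPM in DZ control libraries (log2 difference of LZ against DZ -1.99, SE 0.13, adjusted p = 2.86e-07). It did not pass the test between genotypes (0.17 in LZ, adjusted p = 0.645; -0.13 in DZ, adjusted p = 0.787). B3gnt8 (-1.17, adjusted p = 0.000318), Blvrb (-0.9996, adjusted p = 7.47e-06) and Gmfg (-0.97, adjusted p = 0.000289) were also lower in LZ. So were Kcnn4, a calcium-activated potassium channel (-0.69, adjusted p = 0.0079), Zfp94 (-0.60, adjusted p = 0.0415) and Xrcc1, a scaffold of single-strand break repair (-0.57, adjusted p = 0.0014).

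Ryr1, a calcium release channel of the endoplasmic reticulum, was the called member most raised in LZ, at 25.3, 19.7, 13.0 and 18.1 CPM in LZ control and 6.70, 7.31, 6.43 and 5.08 CPM in DZ control libraries (1.58, SE 0.29, adjusted p = 0.00313). Rasgrp4 (1.11, adjusted p = 0.0439), Pld3, a lysosomal nuclease (0.73, adjusted p = 0.0162), Akt2 (0.38, adjusted p = 0.00759), Map4k1 (0.35, adjusted p = 0.00409) and Tgfb1 (0.32, adjusted p = 0.0483) were higher in LZ as well. Leaving out 1 library ended the zone calls of 4 members. Tgfb1 lost its call in 12 of 16 such fits, all but those without LZ control library 4 or DZ cKO library 1, 2 or 3 (adjusted p up to 0.125). Rasgrp4 lost its call in 11, all but those without LZ control library 4, LZ cKO library 1 or 3 or DZ cKO library 1 or 3 (up to 0.158). Zfp94 lost its call in 8, those without LZ control library 1, 2 or 3, any DZ control library or DZ cKO library 1 (up to 0.127). Pld3 lost its call without LZ control library 1 or 2 or DZ control library 1 or 4 (up to 0.0551). Leaving out a sort day also ended the zone calls of Kcnn4 (days 2 and 4, adjusted p up to 0.0564), Akt2 (days 1 and 2, up to 0.0782) and Map4k1 (day 3, 0.0619). Of the 6 members called between genotypes, Akt2, Blvrb, B3gnt8 and Rasgrp4 were thus also among the 13 called between zones. The matching share over all genes was not computed, and both comparisons use the same control libraries. Whether this overlap is particular to the members was not tested.

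**Figure D4:**
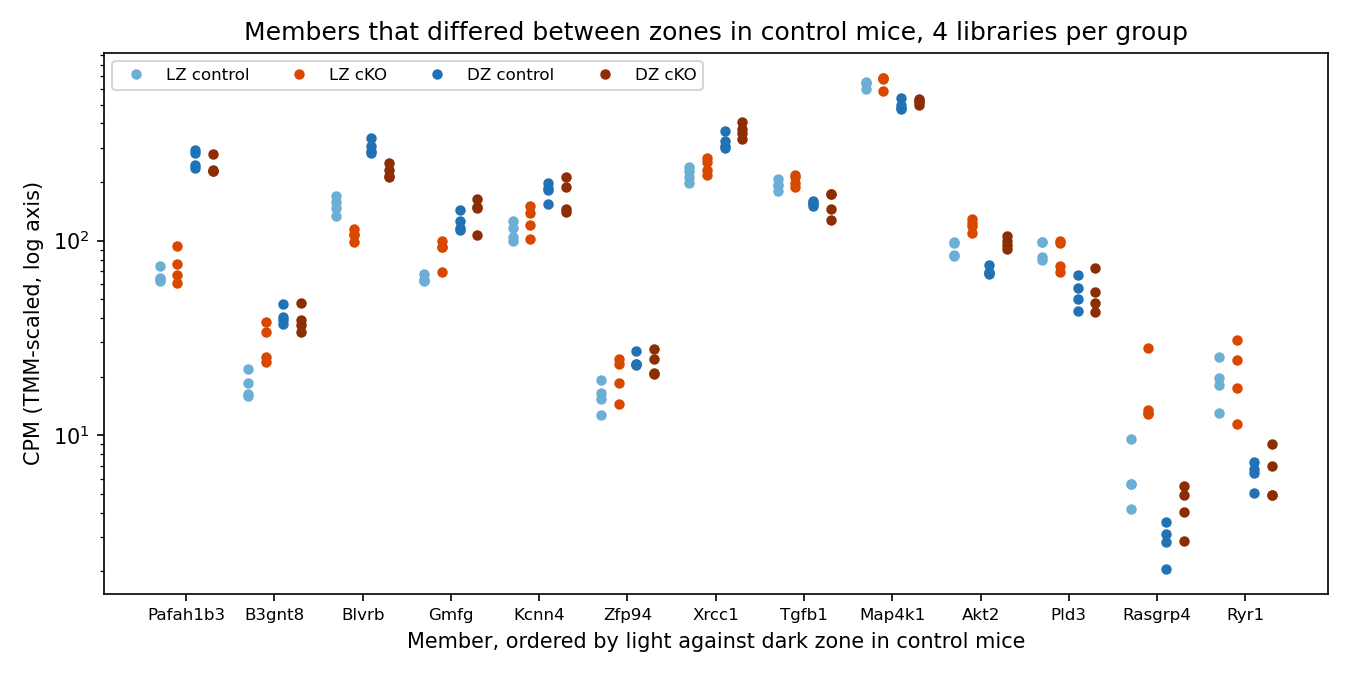
Level in CPM (vertical axis, log scale) of the 13 members called between zones in control mice, ordered from the lowest to the highest LZ against DZ difference (horizontal axis); each point is 1 of 4 libraries per group. Pafah1b3, B3gnt8 and Blvrb lie higher in DZ control than in LZ control libraries, Ryr1 lies higher in LZ, and in cKO libraries the zones overlap for B3gnt8, Kcnn4, Zfp94 and Pld3.

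iCLIP, which maps by UV crosslinking where a protein touches RNA, was done for PTBP1 in 5 replicates of splenic B cells cultured for 48 h with lipopolysaccharide. These are other cells than those sorted from germinal centres, and the site list made from all replicates held 244659 single-base sites. Of 113 tested members with a known strand, 39 had at least 1 site within the gene (34.5%), beside 49.2% of 10573 tested genes. Number of sites depends on the level and length of a gene. Only 2 members had a site of 10 or more cDNAs, and 4 had a site called in at least 2 replicate lists at the same base.

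Sites were concentrated in a pair of members. Pou2f2 held 365 of the 840 sites in tested members, with 665 cDNAs, and replicate lists held 42, 112, 1, 129 and 64 sites in it. Map4k1 held 152 sites with 245 cDNAs, and 5, 11, 4, 43 and 16 in the replicate lists. Both genes had sites in every replicate. Pou2f2 was called lower in both zones with the block alone, and Map4k1 was not called.

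The members called between genotypes had few sites. Akt2 held 11 sites with 16 cDNAs, and of the replicate lists the fourth held 5 and the others 0. Blvrb, B3gnt8 and Fam98c had 0 sites, and Rasgrp4 and Kcnk6, whose strand is not in the table, had 0 on either strand. Site lists are called at a threshold, so 0 says only that no site passed it. Actn4 held 24 sites with 36 cDNAs and Cic, a transcriptional repressor, 41 with 53. In Lipe, a lipase, 105 of 108 cDNAs fell on 1 base (chr7:25395865).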

How the data were processed

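The 16 mRNA libraries and 5 iCLIP libraries were used. The deposited files hold raw read counts per Ensembl gene; the tools named in the submitters' processing notes are HISAT2, HTSeq and Trim Galore 0.4.2, with GRCm38; no source used here gives other versions, the gene annotation or how strand was treated. The 5 lines that name no gene (41.4% to 49.8% of entries) were left out. In the iCLIP lists, the deposited score is a signed cDNA count per site, and per the file headers sites passed a false discovery rate of 0.05.

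Members were located through RefSeq symbols (384 by symbol and 23 by synonym). Counts of all genes were fitted with edgeR 4.0.16 (R 4.3.3, TMM, filterByExpr at a minimum of 10 counts, robust quasi-likelihood, 16 libraries, 4 groups, no block, Benjamini-Hochberg over 15789 genes). The same fit was run on simulated counts that had no sort-day effect. That run therefore does not check it for libraries that share a day. The labels' day of sort pairs replicate numbers; deviations of same-day libraries correlated at 0.153 to 0.468. Libraries of 1 group differed beyond sampling noise (chi-square per degree of freedom 22.2 to 167), and each is a separate pool of mice. Counts limit precision through sampling and through a common biological coefficient of variation of 40.3%.

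The members and role lists were chosen with earlier results of these data known, so no p-value is given over a list. Named are Cd79a, members called in either zone, the 5 lowest p per zone, the 5 nearest on either side, the 5 highest in CPM, up to 4 lowest p per role list and the 5 called members with the widest zone differences in each direction; others are named by their role in a count, and 1 gene that the rule names is not reported here. Alternatives were a sort-day block, other scaling, no filter, DESeq2 1.42.0, the compared groups alone, 1 sex, and leaving out each library or, chosen after seeing the data, each sort day.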

Additional observations from a re-analysis of the deposited data

Results flagged for a closer look

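In 21 of 187 groups of 4 libraries examined for the named genes (11.2%), 1 library stood far from the other 3 relative to the range of the group, where chance gives about 1 in 20. That rate does not hold where the other 3 libraries are all at 0. Such a group is always flagged, as for Cd177 and Zfp30 below. Genes share libraries, so the groups are not independent. No cause was tested.

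Among the called members, Rasgrp4 was at 28.0 CPM in LZ cKO library 1 with the others at 12.8 to 13.6. Fam98c was at 11.5 CPM in LZ control library 4 with the others at 13.9 to 14.3, and Kcnk6 at 8.39 CPM in LZ control library 3 with the others at 5.13 to 5.50.

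Near Cd79a, Gm9844 was at 48.2 CPM in LZ control library 1 and 49.99 CPM in DZ control library 1, with the others at 40.4 to 41.5 and 38.3 to 39.7. Cd177 was at 0.764 CPM in LZ control library 2 and 1.69 CPM in DZ control library 2, with the others at 0. Grik5 was at 3.33 CPM in LZ cKO library 1 (others 0.145 to 0.480) and 0.605 CPM in DZ cKO library 3 (others 1.62 to 1.75). Zfp574 was at 45.6 CPM in LZ control library 1, with the others at 50.1 to 50.9.

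Of the abundant members, Map4k1 was at 604 CPM in LZ control library 2 (others 642 to 649.7) and 591 CPM in LZ cKO library 1 (others 676 to 688). Actn4 was at 306 CPM in DZ cKO library 4 (others 269 to 272) and Pafah1b3 at 279 CPM in the same library (others 227 to 230.2). Gmfg was at 67.7 CPM in LZ control library 3 (others 62.3 to 63.1), Zfp94 at 27.1 CPM in DZ control library 4 (others 23.0 to 23.3) and Ceacam1 at 39.7 CPM in LZ control library 2 (others 20.8 to 23.1).

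Low members were flagged on few counts. Zfp30 was at 0.0330 CPM in LZ cKO library 3 (others 0) and 0.560 CPM in DZ control library 3 (others 0 to 0.0620). Rab4b was at 1.63 CPM in LZ control library 1 (others 1.24 to 1.30) and Ceacam2 at 0.631 CPM in DZ cKO library 2 (others 0 to 0.0701).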

How the results depend on the processing

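Of 28 alternatives, none reversed a called direction among 107 results on named genes. The sort-day block (replicate block, pairing libraries by day) gave 17 called members in LZ, 7 in DZ, 21 between zones and 5 within 1 Mb of Cd79a. The first 3 counts are 12.7%, 5.22% and 15.7% of the members, beside 5.5%, 3.27% and 13.7% of all genes. The count within 1 Mb is over both zones, with shares of 7.55% in LZ and 3.77% in DZ. On other chromosomes the block called 5.79% and 3.35% of genes. Without a filter on low counts 2 were called in LZ (Akt2 and Blvrb), beside 102 of all genes, and 0 within 1 Mb, and the DZ call of Blvrb was lost (adjusted p = 0.0743). Upper-quartile scaling ended the LZ call of Fam98c (0.0659) and the zone calls of Rasgrp4 (0.0532) and Tgfb1 (0.0717), and RLE scaling that of Tgfb1 (0.0511). DESeq2 called 10 in LZ (8.93% beside 4.54% of all genes with an adjusted p), 6 in DZ (4.38% beside 2.94%) and 21 between zones (15.7% beside 11.3%). With only the compared groups in the fit, 1 was called in LZ (Blvrb; 98 of all genes), 1 in DZ (Akt2; 52 of all genes) and 0 within 1 Mb. With 1 sex, 0 were called in LZ, in DZ and within 1 Mb, and between zones 5 in males and 3 in females; these fits have 8 of the 16 libraries, and in males Cd79a was not called (adjusted p 0.143 in LZ and 0.0544 in DZ). Leaving out 1 library or 1 sort day gave 0 to 6 in LZ, 0 to 3 in DZ, 7 to 15 between zones (7 without sort day 2) and 0 to 1 within 1 Mb. Without sort days 1, 2, 3 and 4 the LZ counts were 0, 0, 2 and 0, and the DZ counts 0 in each. For the fits with 1 sex or without a library or sort day, no count over all genes is given here. Whether calls fell more in this window than elsewhere was not tested. Members with an iCLIP site fell from 39 to 2 at 10 or more cDNAs and to 4 in at least 2 replicate lists. The causes were not tested. Of the named results, 17 that were not called became called in at least 1 alternative, and 24 that were not called had the opposite sign in at least 1.

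The 95% intervals of the 27 members under 1 CPM had a median width of 5.10 in LZ and 5.00 in DZ on the log2 scale, beside 0.75 in both zones for the other tested members. Genes without a matched position, reads in overlapping genes and pseudogenes, and variation linked to the Cre allele were not resolved.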
